A study of Homo sapiens with 4 samples.

Results

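Complement components and complement regulators were described in OVCA420 cells, an epithelial ovarian cancer cell line, over a time course of TGF-β1 treatment. The 9 genes are CD46, CD55 and CD59 (regulators on the cell membrane), C1R and C1S (proteases of the classical pathway), SERPING1 (their inhibitor), C3 and CFB (the central component and the protease precursor of the alternative pathway) and CLU (clusterin, a secreted chaperone that also blocks the terminal pathway). They were picked out of the matrices by symbol, and each symbol named 1 row of the 33694 genes in the count matrices. The cells were untreated (Ctrl) or given 10 ng/mL TGF-β1, a cytokine used to induce epithelial-mesenchymal transition (EMT), for 1, 3 or 7 days. All 4 conditions used the same line, with no genetic change named in the labels, and treatment was timed so that all conditions were harvested together. There was 1 droplet-based library per condition, so no replicate check was possible and no test was made. All intervals given are 95% intervals and cover counting error only.

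Complement is a cascade of plasma and tissue proteins that is started by bound antibody (classical pathway), by sugars on microbes (lectin pathway) or by slow spontaneous turnover of C3 (alternative pathway). All routes cleave C3, which coats surfaces, and can go on to assemble the membrane attack complex, a pore in the target membrane. Host cells, tumor cells included, are shielded by membrane regulators that help to cleave C3b and C4b (CD46), dissociate the enzymes that cleave C3 and C5 (CD55) or keep the pore from forming (CD59). Epithelial cells can make several of the soluble components themselves, although the liver makes most of those in plasma.

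The matrices held 3170 of the 10710 cells in the barcode lists, between 572 and 945 per library, and 3144 were retained. The sums over retained cells were between 25382817 and 32949874 counts of unique molecular identifiers (UMIs, each standing for 1 captured mRNA molecule) per library, and the median per cell was between 30270 and 43553. Between 1 and 7 cell barcodes were shared by any 2 libraries. The 5 epithelial markers were detected in every library and summed to between 3171 and 4588 counts per 1000000 UMIs (CPM). They did not move together. From Ctrl to 7-day, ELF3 went from 269 to 52.8 CPM, KRT19 from 1178 to 581 CPM and KRT8 from 1075 to 865 CPM. EPCAM went from 331 to 297 CPM, and KRT18 from 841 to 1376 CPM. The 5 leukocyte markers summed to between 2.27 and 6.26 CPM, with PTPRC at 0 in all 3 treated libraries. Most of the treated sums was CD68, a lysosomal protein gene that was at 1.53, 3.00, 4.73 and 6.19 CPM in time order from Ctrl, and its part in the results was not tested. The 3 endothelial markers summed to 5.40 CPM in Ctrl and to between 0.311 and 0.473 CPM after treatment, and the 3 fibroblast markers to between 0.118 and 1.37 CPM. CDH5 alone was at 5.37 CPM in Ctrl, found in 13.4% of cells, where PECAM1 had 0 UMIs and VWF had 1. The share of cells called G1 differed between conditions, at 25.4% of Ctrl cells and at 74.3%, 50.5% and 39% of cells after 1, 3 and 7 days.

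Across the 9 genes, CD59 and CD55 rose with TGF-β1, CLU fell by a far larger factor, and C1S was lower at 1-day and 3-day but not at 7-day. Levels are given in CPM of the library, and a gene was counted as changed where its level differed at least 2-fold. The count covered the 6 members with at least 50 UMIs over the 4 libraries (CD46, CD55, CD59, C1R, C1S and CLU), and SERPING1, C3 and CFB had fewer. At 1-day against Ctrl, 0 of these 6 genes rose and 0 fell, where 11.0% of the 14182 genes with at least 50 UMIs rose and 11.7% fell. At 3-day 1 rose (CD59) and 1 fell (CLU), beside 11.8% and 10.3% of all genes. At 7-day 2 rose (CD55 and CD59) and 1 fell (CLU), beside 13.8% and 9.48%. With 6 genes, a single gene weighs more than any of these shares, so the counts are given as a description.

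The same count between successive time points gave 0 higher and 1 lower gene (CLU) from 1-day to 3-day, where 6.40% of all genes rose and 5.83% fell. From 3-day to 7-day 1 gene rose (C1S) and 1 fell (CLU), beside 3.83% and 2.37%. The median log2 ratio to Ctrl of the 6 genes was -0.14 at 1-day, 0.13 at 3-day and 0.59 at 7-day. Over all 14182 genes it was -0.07, -0.01 and 0.07. The 3 ratios to Ctrl share the Ctrl library, and so are not independent of each other.

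**Figure D1:**
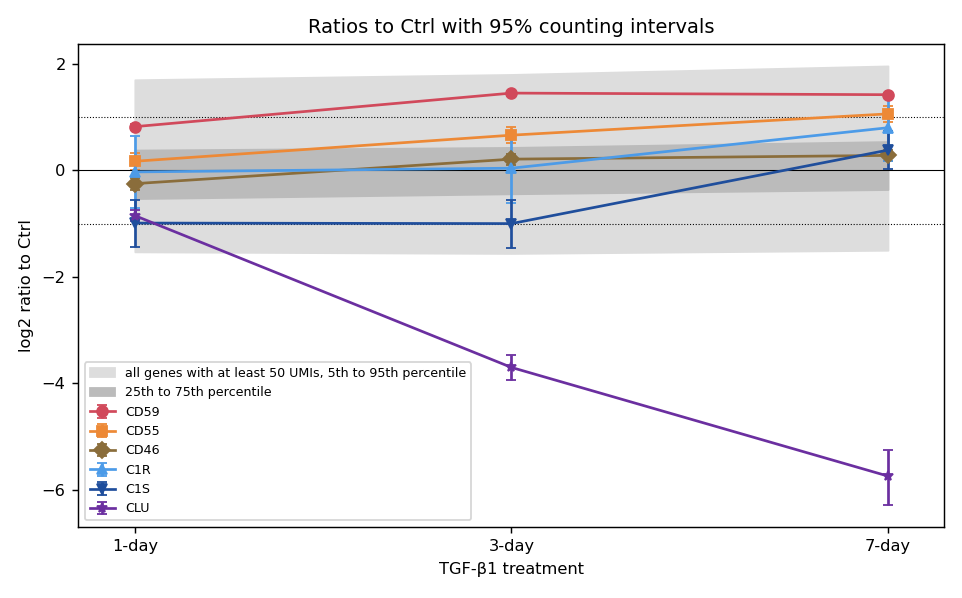
Log2 ratio of the summed level at 1-day, 3-day and 7-day of TGF-β1 treatment (x axis) to Ctrl (y axis, log2) for the 6 complement genes with at least 50 UMIs, with bars for 95% counting intervals, grey bands for the middle 90% and the middle 50% of all genes with at least 50 UMIs, and dotted lines at a 2-fold difference. CLU leaves the grey bands downward to -5.74. CD59 and CD55 end above the upper dotted line at 1.42 and 1.06 but within the band of the middle 90%. C1S goes from -0.99 at 1-day to 0.38 at 7-day.

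CD59, a glycolipid-anchored inhibitor of the membrane attack complex, rose early and then held its level. Its level was 194 CPM in Ctrl (interval 189 to 199), 343 CPM at 1-day (337 to 350), 529 CPM at 3-day (521 to 537) and 518 CPM at 7-day (510 to 527). Ctrl was lowest and 1-day lay between it and the later libraries, while the intervals of 3-day and 7-day overlapped. Against Ctrl, CD59 was 1.77-fold higher at 1-day, 2.73-fold at 3-day and 2.67-fold at 7-day. Of the 14182 genes, 13.8%, 7.44% and 8.73% had a higher ratio than CD59 at these times. On the log2 scale 58% of the 7-day difference was present at 1-day and 102% at 3-day. From 3-day to 7-day the log2 ratio was -0.03 (interval -0.06 to 0.00).

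The CD59 gene (ENSG00000085063) lies on chromosome 11 at 33703010 to 33736479 of GRCh38, on the minus strand. The RefSeq promoter table for GRCh38.p14 lists 4 CD59 starts. The bases before the first and the last of them are shown because CD59 was the membrane regulator with the largest rise, and because their motifs differ. Both stretches hold no annotated exon of CD59 and are written 5′ to 3′ on the gene's strand. The first is chr11:33736480-33736729 (minus strand, 250 bases, ending at the base before the start), where capitals mark a GAS motif, the palindrome bound by STAT factors. The second is chr11:33722728-33722916 (minus strand, 189 bases, ending at the base before an internal start), where capitals mark 2 AP-1 motifs.
CD59 first start: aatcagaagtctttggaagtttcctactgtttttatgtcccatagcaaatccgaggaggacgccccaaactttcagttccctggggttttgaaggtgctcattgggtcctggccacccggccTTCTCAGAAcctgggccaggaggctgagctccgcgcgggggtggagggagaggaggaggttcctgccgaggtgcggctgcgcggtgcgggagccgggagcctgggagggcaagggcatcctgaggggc
CD59 internal start: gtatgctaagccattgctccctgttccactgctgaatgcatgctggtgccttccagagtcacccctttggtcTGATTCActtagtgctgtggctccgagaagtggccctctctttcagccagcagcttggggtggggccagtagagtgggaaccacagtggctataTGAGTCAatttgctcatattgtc
The counts come from tags near the 3′ end of the mRNA, so they do not tell which start was used.

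Motifs were searched on both strands of the 300-base promoters (250 bases before the start and 50 after) of the 5 members in that table, namely CD46, CD55, CD59, C1R and CFB. AP-1 (TGANTCA) was found only at the internal CD59 start, 3 times, at -117 to -111, -23 to -17 and 3 to 9 from the start, and occurs in 7.71% of all 35116 promoters in the table. GAS (TTCNNNGAA) was found at -128 to -120 of the first CD59 start, at -86 to -78 of a C1R start and at -92 to -84 of the CFB start, and occurs in 7.66%. The site at -184 to -176 of another CD59 start is the same genomic site as the first. The interferon-stimulated response element core was found in CFB only, at -140 to -131, and occurs in 3.57%. CFB also held a TATA box (TATAAA, in 11.5%) at -30 to -25. The NF-kB motif (5.91%) and the SMAD palindrome (GTCTAGAC, 0.202%) had no match in these promoters, and CD46 and CD55 had no match for any of the 6 motifs. A match says only that the letters are present, and none of these sites was measured here. Promoters of C1S, SERPING1, C3 and CLU were not used.

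CD55 (decay-accelerating factor), which dissociates the enzymes that cleave C3 and C5, rose more slowly than CD59. Its level was 19.5 CPM in Ctrl (interval 18.0 to 21.2), 21.9 CPM at 1-day (20.4 to 23.6), 31.0 CPM at 3-day (29.1 to 32.9) and 40.7 CPM at 7-day (38.2 to 43.2). Each library was above the one before it, although the intervals of Ctrl and 1-day overlapped. The fold over Ctrl was 1.12 at 1-day, 1.58 at 3-day and 2.08 at 7-day (interval 1.88 to 2.31). At 7-day 12.9% of the 14182 genes had a higher ratio than CD55. Of the 7-day log2 difference, 15.8% was present at 1-day and 62.8% at 3-day. The 1-day difference was small, with a log2 ratio of 0.17 over all cells and -0.11 over G1 cells. The part of cell cycle phase in it was not tested. At 7-day the log2 ratio was 1.06 over all cells, 0.87 over G1 cells and 0.97 with median-of-ratios size factors, and the last 2 values are under 2-fold.

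CD46 (membrane cofactor protein), which helps factor I to cleave C3b and C4b, did not reach 2-fold in any comparison. It was at 45.5 CPM in Ctrl (interval 43.1 to 48.0), 38.1 CPM at 1-day (36.1 to 40.3), 52.6 CPM at 3-day (50.1 to 55.2) and 55.1 CPM at 7-day (52.2 to 58.0). The 1-day library was lowest, Ctrl was next, and the intervals of 3-day and 7-day overlapped. Its log2 ratio to Ctrl was -0.25 at 1-day (interval -0.37 to -0.14) and 0.28 at 7-day (0.17 to 0.38). Both intervals leave out 0, but the spread between libraries of 1 condition is unknown. CD46 shares its locus on the opposite strand with the noncoding RNA gene MIR29B2CHG.

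CD55 and CD46 lie in the cluster of complement regulator genes on chromosome 1 (GRCh38, both on the plus strand, CD55 at 207321519 to 207386804 and CD46 at 207752037 to 207795513). The genes CR2, CR1 and CR1L lie between them, and C4BPB and C4BPA lie before CD55. CR1 and CR1L had 0 UMIs in all libraries, and CR2 had between 2 and 4. The cluster thus held genes at 0 and genes that rose within the same stretch of the chromosome.

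Summed over the 3 membrane regulators, the level was 259 CPM in Ctrl (interval 253 to 265), 403 CPM at 1-day (397 to 410), 613 CPM at 3-day (604 to 622) and 614 CPM at 7-day (605 to 624). CD59 made up 74.9% of these UMIs in Ctrl and between 84.4% and 86.4% after treatment. UMIs are counted once per molecule and not per length, so this is a share of captured molecules.

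**Figure D2:**
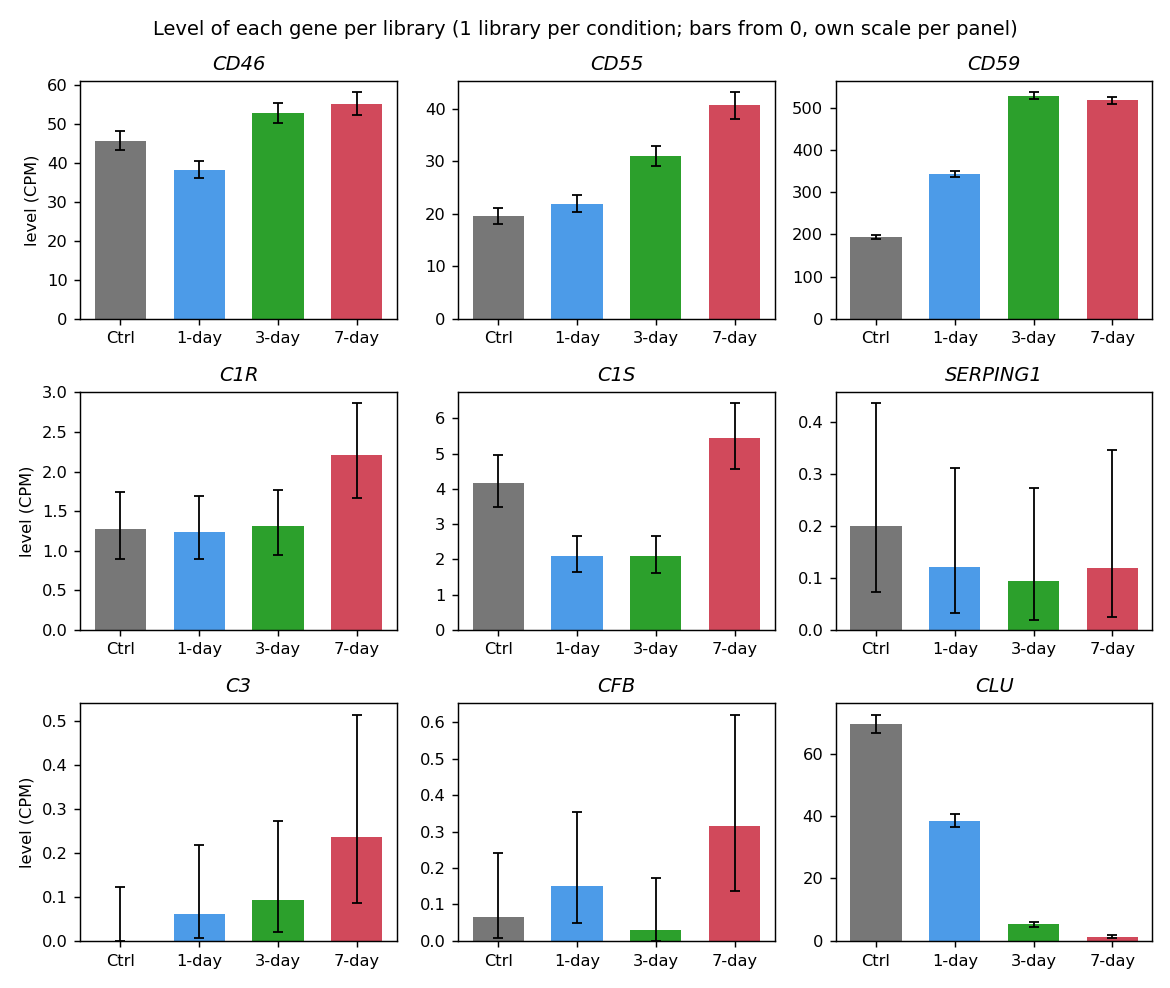
Level in CPM (y axis, from 0, with its own scale in each panel) of the 9 complement genes in the Ctrl, 1-day, 3-day and 7-day libraries (x axis), with 1 bar per library and 95% Poisson intervals. CD59 reaches 529 CPM at 3-day and stays near it, CD55 climbs to 40.7 CPM, CLU drops from 69.5 to 1.30 CPM, and the intervals of SERPING1, C3 and CFB overlap across the libraries.

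Cells differed in depth, so each was thinned to 18000 UMIs before cells were compared, leaving 844 cells for Ctrl and, in time order, 900, 677 and 549 treated cells. CD59 was found in 94.3% of thinned Ctrl cells and in 99.4%, 100% and 100% of the treated cells in time order (97.5%, 99.9%, 100% and 100% before thinning). Its mean per cell was 3.45 UMIs in Ctrl and 6.16, 9.61 and 9.39 UMIs in the treated libraries. The whole distribution moved, since the 10th percentile went from 1 UMI in Ctrl to 4 at 7-day and the 90th from 6 to 15. Above the Ctrl 90th percentile lay 9.72% of Ctrl cells and 40.9%, 72.5% and 72.9% of cells after 1, 3 and 7 days.

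CD55 was found in 27.8% of thinned Ctrl cells (interval 24.8% to 31%) and in 47.9% of 7-day cells (43.7% to 52.2%), with 30.7% and 39.9% between them. Before thinning the shares ran from 41.3% in Ctrl to 78.9% at 7-day. In time order from Ctrl, CD46 was found in 53%, 49.9%, 58.6% and 57.9% of thinned cells (68.7%, 66.4%, 82.4% and 83% before thinning). No other cell type was in the libraries in which the background from free RNA could be measured for these genes.

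**Figure D3:**
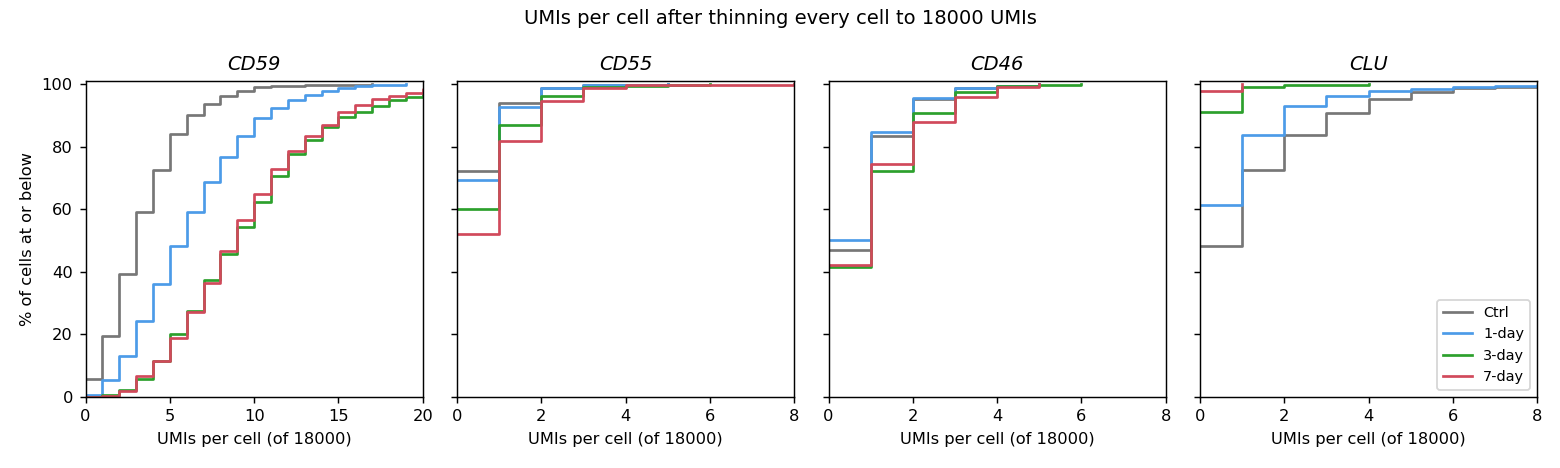
Share of cells (y axis, percent) with at most the given number of UMIs (x axis, of 18000 UMIs per cell) for CD59, CD55, CD46 and CLU, with 1 line each for Ctrl, 1-day, 3-day and 7-day. The CD59 lines move right as a whole, from a mean of 3.45 UMIs in Ctrl to 9.39 at 7-day, and the CLU lines move toward 0, where only 2.19% of 7-day cells held a UMI.

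The 10 cells with the most UMIs held between 3.94% and 5.39% of all CD59 UMIs, between 7.75% and 10.4% of those of CD55 and between 5.56% and 6.22% of those of CD46, so no few cells carried these levels. Within a library, over thinned cells, the Pearson correlation between 2 of the 3 membrane regulators was between -0.05 and 0.17, the highest being CD46 with CD59 over the 549 cells at 7-day. Cells of 1 library share their preparation, and the per-cell counts are low. They are given as a description only.

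By cell cycle phase, mean thinned CD59 was 3.63 UMIs in G1, 3.50 in S and 3.29 in G2M cells of Ctrl, and 10.9, 9.01 and 8.07 in the same phases at 7-day. CD59 at 7-day was thus above Ctrl within each phase. CD46 at 7-day was at 1.29 UMIs in G1 and at 0.832 and 0.821 in S and G2M cells. In Ctrl it was between 0.742 and 0.779 in the 3 phases, so the CD46 values of Ctrl and 7-day lay furthest apart in G1 cells. The phase calls rest on each cell's own RNA, and their part in these levels was not tested.

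C1R and C1S encode the paired serine proteases that, bound to C1q, start the classical pathway. They lie as neighbours on chromosome 12 (GRCh38, C1S at 6988259 to 7071032 on the plus strand, C1R at 7080214 to 7092540 on the minus strand). C1S was at 4.17 CPM in Ctrl (interval 3.47 to 4.97), 2.09 CPM at 1-day (1.63 to 2.65), 2.08 CPM at 3-day (1.62 to 2.65) and 5.44 CPM at 7-day (4.57 to 6.42). The 1-day and 3-day libraries were alike and below the other two, whose intervals overlapped each other.

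The level of C1S was 1.99-fold lower than Ctrl at 1-day and 2.00-fold lower at 3-day, both just short of the 2-fold rule before rounding. From 3-day to 7-day it rose 2.61-fold (interval 1.93 to 3.55), and 1.78% of all genes had a higher ratio in that step. The 7-day level was 1.30-fold that of Ctrl (1.02 to 1.68). These levels rest on 125, 69, 67 and 138 UMIs in time order, found in between 7.15% and 17.9% of cells, or between 3.33% and 9.65% after thinning. C1S overlaps LPCAT3 on the opposite strand.

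C1R was at 1.27 CPM in Ctrl (interval 0.896 to 1.74), 1.24 CPM at 1-day (0.893 to 1.69), 1.31 CPM at 3-day (0.942 to 1.77) and 2.21 CPM at 7-day (1.67 to 2.86), from 38, 41, 42 and 56 UMIs. The first 3 libraries were alike, and 7-day was highest, with an interval that overlapped slightly with theirs. The log2 ratio of 7-day to Ctrl was 0.80 (interval 0.18 to 1.43), under 2-fold. Over G1 cells alone the log2 ratios to Ctrl were 0.61 at 1-day, 0.80 at 3-day and 1.62 at 7-day, of which the 1-day value lies within the counting interval over all cells. Only 237 of the 933 Ctrl cells were called G1, so the Ctrl side of these ratios rests on a part of its 38 UMIs. No interval is given for them, and the part of phase in the C1R values was not tested. C1R also overlaps its paralog C1RL on the same strand, which makes its few counts less certain.

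Summed, C1R and C1S were at 5.43, 3.34, 3.39 and 7.64 CPM in time order from Ctrl. The sum follows C1S, which held most of the UMIs. No UMI of the 3 C1q chain genes C1QA, C1QB and C1QC was found in any library, which allows each a level of up to between 0.0910 and 0.118 CPM per library when 3 counts are taken as the limit.

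SERPING1 encodes C1 inhibitor, the serpin that inactivates C1r and C1s, and lies on chromosome 11 (GRCh38, 57597387 to 57619171, plus strand). It had 6, 4, 3 and 3 UMIs in time order from Ctrl. Its levels of 0.200, 0.121, 0.0933 and 0.118 CPM have overlapping intervals, the highest bound being 0.435 CPM in Ctrl. The log2 ratio of 7-day to Ctrl was -0.76 with an interval from -3.39 to 1.47. No difference of SERPING1 was detectable at this depth.

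C3, the component on which all routes converge, lies on chromosome 19 (GRCh38, 6677704 to 6730562, minus strand) and had 0 UMIs in Ctrl and 2, 3 and 6 UMIs in the treated libraries in time order. When 3 counts are taken as the limit, 0 UMIs in Ctrl allow up to 0.100 CPM, and the interval of the Ctrl level reaches 0.123 CPM. Taken against that limit of 3 counts, the 7-day level of 0.236 CPM (interval 0.0867 to 0.515) was 2.36-fold higher by its point value. That fold is not a lower bound. The counting interval of the ratio to Ctrl reaches down to 1.39-fold, and the 2 levels' own intervals overlap. No fold is given for 1-day and 3-day, whose counts were at or under 3. The 6 UMIs at 7-day came from 5 of 569 cells, 2 of them from 1 cell. C3 shares part of its locus with GPR108 on the same strand.

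CFB encodes factor B, which binds C3b to form the alternative pathway enzyme, and lies on chromosome 6 (GRCh38, 31945650 to 31952086, plus strand) in the major histocompatibility complex. It had 2 UMIs in Ctrl, then 5, 1 and 8 UMIs after 1, 3 and 7 days. The 7-day level was 0.315 CPM and the Ctrl level 0.0667 CPM, a log2 ratio of 2.24 whose interval ran from -0.08 to 5.51. The ratio of 7-day to 3-day was 3.34 on the log2 scale (interval 0.44 to 8.81), with 1 UMI in the lower library. The CFB levels went up and down between libraries within 1 to 8 UMIs. CFB overlaps C2 and another protein-coding gene on the same strand, which makes its few counts less certain.

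CLU stood apart from the other members, with a lower level at every step. Its level was 69.5 CPM in Ctrl (interval 66.5 to 72.5), 38.5 CPM at 1-day (36.4 to 40.7), 5.35 CPM at 3-day (4.58 to 6.21) and 1.30 CPM at 7-day (0.895 to 1.83). These rest on 2084, 1269, 172 and 33 UMIs, and no 2 of the 4 intervals overlapped. CLU was 1.80-fold lower than Ctrl at 1-day, 13.0-fold lower at 3-day and 53.4-fold lower at 7-day.

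On the log2 scale, CLU was at -0.85 against Ctrl at 1-day (interval -0.95 to -0.75), -3.70 at 3-day (-3.93 to -3.47) and -5.74 at 7-day (-6.28 to -5.25). The step from 1-day to 3-day was -2.85 and that from 3-day to 7-day -2.04. At 1-day 14.8% of the 7-day log2 difference was present, and at 3-day 64.4%. In order of the 7-day ratio, CLU was the 47th lowest of 14182 genes, with 0.324% of them below it. The CLU gene (ENSG00000120885) lies on the minus strand of its chromosome.

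Among thinned cells, CLU was found in 51.8% of Ctrl cells (interval 48.3% to 55.2%), 38.8% of 1-day cells (35.6% to 42%), 9.01% of 3-day cells (6.96% to 11.4%) and 2.19% of 7-day cells (1.13% to 3.79%). Before thinning the shares were 65.9%, 53%, 18.3% and 4.92%. In cells with a CLU UMI the mean also dropped, from 2.23 UMIs in Ctrl to 1.84 at 1-day, 1.16 at 3-day and 1.00 at 7-day. The mean over all cells went from 1.15 to 0.0219 UMIs. A mean over cells with a UMI cannot go under 1 and falls as the mean over all cells falls. It is therefore not a result separate from the share of cells. At 7-day a thinned cell held at most 1 CLU UMI, so the level per positive cell is at its floor there.

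Thinned CLU counts in Ctrl varied more between cells than those of the membrane regulators, with a variance over mean of 2.32 against 1.62 for CD59, 1.17 for CD55 and 1.09 for CD46. The 10 cells with the most CLU held 9.17% of its UMIs in Ctrl and 45.5% at 7-day, where there were 33 UMIs in all. By phase, mean CLU in Ctrl was 1.32 UMIs in G1, 1.18 in S and 1.03 in G2M cells. At 7-day it was between 0.0199 and 0.0237 UMIs in the same phases, so CLU was low in each. The Pearson r of CLU over 844 Ctrl cells was -0.08 with CD59, -0.06 with CD46 and -0.04 with CD55. Over 900 cells at 1-day it was -0.07, 0.04 and 0.03 in the same order. All are small and are given as a description.

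Genes like each member were sought among the 6333 with at least 20 CPM in a library and a UMI in every library. The closest had the smallest root mean square difference of the 3 log2 ratios to Ctrl. For CD59 they were ANKLE2 (0.03), CAMSAP2 (0.08) and CD63 (0.08), the last a tetraspanin of late endosomes that went from 511 CPM in Ctrl to 1363 CPM at 7-day. For CD55 they were CLDND1 (0.02), RC3H2 (0.05) and C16orf52 (0.06). For CD46 they were TBC1D14 (0.01), NME6 (0.02) and OGFR (0.03). With only 3 ratios that share 1 Ctrl library, many genes come close to these moderate courses.

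CLU had no such near neighbours. Its closest genes were TFF1 (a secreted trefoil peptide) at 0.30, AQP3 (a water and glycerol channel) at 0.47 and CEMIP (a hyaluronan-binding protein) at 0.79. TFF1 went from 138 CPM in Ctrl to 3.43 CPM at 7-day, with a log2 ratio of -5.33 against -5.74 for CLU. The TFF1 value lies within the counting interval of CLU (-6.28 to -5.25), whose 7-day level rests on 33 UMIs. Only 0.324% of all genes were below CLU at 7-day, so few genes lie in that range to come close. Genes lacking UMIs in a library were not searched. AQP3 went from 42.3 to 1.34 CPM.

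Among 49 other genes of the complement system, 21 had no UMI in any library and 9 had at least 50 UMIs in all. Of these 9, 1 rose (C5AR1) and 1 fell (CFD) at 1-day, 1 rose (C4BPB) and 2 fell (CFD and VTN) at 3-day, and 1 rose (C4BPB) and 1 fell (VTN) at 7-day against Ctrl. Their median log2 ratio was 0.44, -0.50 and -0.07 in the same order. From 1-day to 3-day 0 rose and 2 fell (VTN and C5AR1), and from 3-day to 7-day 1 rose (CFD) and 2 fell (VTN and C5AR1). The shares of all genes given above for each comparison apply here too.

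C4BPB, the beta chain of the fluid-phase regulator C4b-binding protein, also rose and lies in the same cluster as CD55 and CD46. From Ctrl to 7-day it was at 24.3, 32.9, 56.7 and 61.9 CPM. The 7-day log2 ratio was 1.35 (interval 1.22 to 1.48). The alpha chain gene C4BPA had between 0 and 2 UMIs per library, so it was not detected at a level that could be compared.

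CFD (factor D, the protease that cleaves factor B) had a dip and return like that of C1S. Its level was 7.20, 2.88, 3.27 and 6.86 CPM in time order from Ctrl. From 3-day to 7-day the log2 ratio was 1.07 for CFD, beside 1.38 for C1S. Over G1 cells alone that of CFD was 0.41. C1RL was at 4.57, 4.31, 2.99 and 5.20 CPM in time order and did not reach 2-fold.

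VTN (vitronectin, which like clusterin blocks assembly of the membrane attack complex in solution) had levels of 3.67, 5.07, 0.373 and 0.0788 CPM from Ctrl to 7-day. It fell by 5.54 on the log2 scale at 7-day against Ctrl (interval -8.60 to -3.65), with 2 UMIs left, and over G1 cells alone the value was -4.02. VTN overlaps another protein-coding gene on its strand. C1QBP, a mostly mitochondrial protein that binds C1q heads, had levels of 296, 198, 208 and 177 CPM in that order. These were lower after treatment but within 2-fold over all cells. The 7-day log2 ratio of C1QBP to Ctrl was -0.74 over all cells and -1.09, past 2-fold, over G1 cells alone.

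C5AR1, the receptor for the C5a fragment, was low and was named after its values were seen. It had 9, 43, 19 and 5 UMIs in time order from Ctrl, highest at 1-day.

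**Figure D4:**
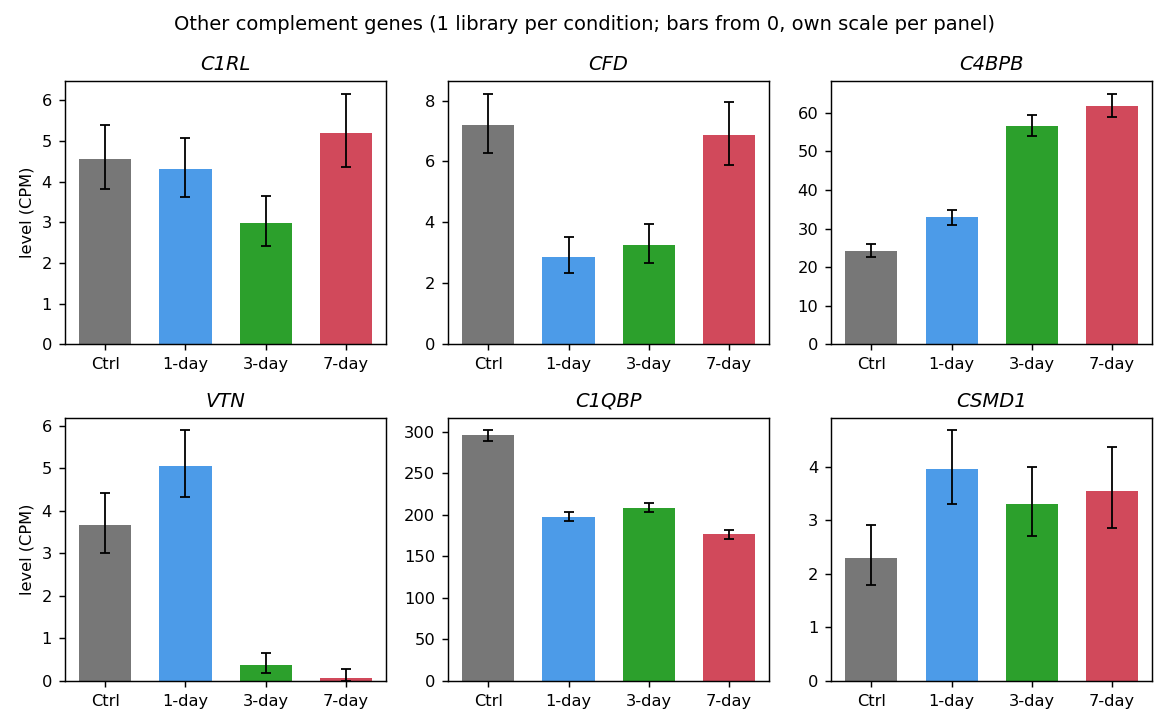
Level in CPM (y axis, from 0, with its own scale in each panel) of 6 other complement genes in the Ctrl, 1-day, 3-day and 7-day libraries (x axis), with 1 bar per library and 95% Poisson intervals. The genes are C1RL, CFD, C4BPB, VTN, C1QBP and CSMD1, the last at most at 3.95 CPM. C4BPB climbs to 61.9 CPM, CFD dips and comes back to 6.86 CPM at 7-day, and VTN drops from 3.67 to 0.0788 CPM.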

How the data were processed

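OVCA420 cells were profiled by droplet-based scRNA-seq, untreated or after 1, 3 or 7 days of 10 ng/mL TGF-β1, with 1 library per condition. The authors aligned reads to GRCh38 with Cell Ranger 2.0.1 (per the submitters' processing notes) and deposited UMI counts per gene and cell, without normalization. The matrices analysed here held the first 3170 of 10710 listed cells in barcode order, so the sums are part of each library's depth. Cells with more than 200 genes and at most 20% mitochondrial UMIs were retained (3144). Scrublet (scanpy 1.11.5) marked 33 doublets, which were retained. SCTransform and the regression steps of the study were not applied.

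Levels are CPM of UMIs summed over cells, with exact Poisson intervals; ratios have exact conditional intervals and shares exact binomial ones. The ratio intervals were checked on simulated counts that held counting error only. Those of levels and shares were not checked in this way. Genes with at least 50 UMIs over the 4 libraries entered counts past 2-fold. Cell cycle lists came from Seurat 5.3.0 and TMM factors from edgeR 4.0.16, the latter as an alternative only. Alternatives were another or no mitochondrial limit, removal of doublets, 2 other scalings, means over cells, cells thinned to 18000 UMIs, G1 cells, each part of the cells in barcode order, another fold and other UMI minimums. Positions came from GENCODE release 44, matched by Ensembl identifier, and promoters from RefSeq (GRCh38.p14), where 5 of the 9 members matched. Scripts used Python 3.11.15 and R 4.3.3.

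The text names all 9 members, listed complement genes with at least 5 CPM in a library, and, for members with at least 20 CPM, the 3 genes with the most similar ratios. C5AR1, C4BPA, the C1q chain genes and the receptor genes of the chromosome 1 cluster were named outside that rule, after their values were seen. CSMD1, at most at 3.95 CPM, was also plotted outside it. Some complement genes are not reported here and were left out of the list and its counts. The members and lists were chosen with earlier results of these data known.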

Additional observations from a re-analysis of the deposited data

Results flagged for a closer look

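For 3 genes the interval of the log2 ratio to Ctrl left out 0 on opposite sides at 1-day and at 7-day. These intervals cover counting error only. No share of all genes that meet the same rule is given, so the 3 genes are a description. CD46 was at -0.25 at 1-day and at 0.28 at 7-day, with 38.9% and 62.7% of all genes at lower ratios. C1S was at -0.99 at 1-day and at 0.38 at 7-day, with 11.9% and 68.3% of all genes at lower ratios. The 7-day value of C1S was 0.09 over the earlier cells in barcode order and 0.72 over the later cells. VTN was at 0.47 at 1-day and at -5.54 at 7-day. With 1 library per condition, the difference between the time points was not tested for any of these genes, and both ratios share the Ctrl library.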

How the results depend on the processing

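Over the alternatives, 267 of 300 log2 ratios of members stayed within the counting interval of the value reported and 33 did not. The sign changed in 19, none of them for a 2-fold difference. Of the single ratios to Ctrl, CD46 at 7-day ran from 0.13 (earlier cells in barcode order) to 0.48 (G1 cells). CD46 at 1-day ran from -0.36 (G1 cells) to -0.10 (thinned cells). CD59 at 7-day ran from 1.33 (median-of-ratios size factors) to 1.55 (G1 cells). C1S at 3-day ran from -1.44 (earlier cells) to -0.55 (G1 cells and later cells). C1S at 7-day ran from 0.09 (earlier cells) to 0.72 (later cells). The other ratios that moved are not all listed. The counts and shares that moved are grouped here by setting. Shares of all genes were recomputed for the other UMI minimums only, so counts in the other settings have no share beside them. The cause was not tested unless the setting itself lowers or raises the threshold.

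At a 1.5-fold threshold, 1 member was higher and 2 lower at 1-day against Ctrl, and 2 were higher and 2 lower at 3-day. At 7-day against Ctrl, C1R (1.74-fold) was higher too, beside CD55 and CD59. Between time points, 1 was higher from 1-day to 3-day and 2 were higher from 3-day to 7-day. The share of all genes past 1.5-fold was not computed, so the counts at that threshold have nothing to be set against. C1S stood just short of 2-fold, so 1 member was lower at 1-day with no mitochondrial limit, doublets left out, thinned cells or the earlier cells in barcode order, and 2 were lower at 3-day with doublets left out, median-of-ratios size factors or the earlier cells. With median-of-ratios factors 1 member rose at 7-day, CD55 being under 2-fold at 0.97 on the log2 scale. In G1 cells CD55 was under 2-fold too (0.87) and C1R, with few UMIs in Ctrl, above it (1.62), so the count there was still 2. That scaling moved the median of all genes by -0.11 between 1-day and 3-day.

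Of the other complement genes, 2 rose at 3-day with TMM factors, means over cells, G1 cells, the earlier cells or the later cells in barcode order, and 1 fell with thinned cells or the later cells. At 7-day 3 rose in G1 cells, 3 fell in G1 cells and with thinned cells, and 2 fell in the earlier and in the later cells. From 1-day to 3-day 1 rose in G1 cells and in the later cells, and 1 fell with means over cells. From 3-day to 7-day 0 rose with TMM factors and with thinned cells, and 2 rose in the earlier cells. Several of these genes had few UMIs. At 7-day C5, C8G, C5AR1 and VTN had 16, 9, 5 and 2 UMIs over all retained cells.

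With at least 500 UMIs required, the share of all genes that fell was 5.71% at 3-day, 5.25% at 7-day, 2.65% from 1-day to 3-day and 0.981% from 3-day to 7-day, where 1.24% rose. With at least 10 UMIs, 9.63% fell from 1-day to 3-day, and 7.89% rose and 5.21% fell from 3-day to 7-day.

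No paired analysis was possible because there was 1 library for each condition. The ratios of C3 to Ctrl were not recomputed, since Ctrl had 0 UMIs. At this depth SERPING1, C3 and CFB, with at most 8 UMIs per library, allow no comparison of moderate size, and variation between cultures is unknown.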
